A study of Sus scrofa with 9 samples.

Results

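The transforming growth factor beta (TGF-beta) system of porcine valvular interstitial cells (PVICs) was followed through 10 genes, taken by symbol from the 19535 gene rows of the count table. They encode the ligands TGFB1, TGFB2 and TGFB3, the receptors TGFBR1, TGFBR2 and TGFBR3, the latent binding proteins LTBP1 and LTBP2, the signal transducer SMAD3 and the inhibitor SMAD7. All 10 were among the 13662 genes with enough counts for testing. PVICs are the interstitial cells of the aortic valve leaflet, isolated here from wild type pigs aged 4 to 5 months. The control group was cultured in DMEM. The OIM group received osteogenic medium with added phosphate, ascorbic acid and insulin, and the bFGF group received the same osteogenic medium with 50 ng/mL basic fibroblast growth factor. No group had bFGF without the osteogenic medium. Each group had 3 libraries, and the labels give 3 days of treatment, whereas the methods of the study give a shorter time before RNA extraction. Neither source says whether the libraries of a group came from separate animals or cultures, so p-values measure the spread between these libraries, which may be technical.

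TGF-beta ligands are secreted in an inactive form, held by their own propeptide and tied to the matrix by latent TGF-beta binding proteins, until integrins, proteases or thrombospondin release them. The free ligand binds the type II receptor (TGFBR2), which activates the type I receptor (TGFBR1), and the co-receptor betaglycan (TGFBR3) presents ligand, TGFB2 above all. TGFBR1 phosphorylates SMAD2 and SMAD3, which carry the signal to the nucleus. SMAD7, itself induced by the signal, acts back on the receptor complex as an inhibitor. In valve interstitial cells this pathway is known for driving the myofibroblast state, with contractile proteins and collagen, and in culture it can lead to calcified nodules.

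The libraries held 46773376 to 67371523 counts on genes. Every bFGF library had fewer counts (at most 48270827) than every other library (at least 57075793), and every member had at least 668 counts in every library. Values are CPM, the counts scaled to a common library total after TMM normalization, which assumes that most genes do not differ. A gene was called higher or lower where the Benjamini-Hochberg adjusted p of edgeR's quasi-likelihood test was no more than 0.05 and its log2 fold change was 0.5 or more in size. With library totals in place of TMM, the median log2 fold change of all genes moved from -0.0029 to 0.22 for bFGF against OIM and from -0.016 to 0.21 for bFGF against control, so each change under bFGF is relative to that choice. Among markers of the labelled cell type, VIM stood at 6247 ± 106 CPM in control against 9008 ± 87.3 with bFGF, and PDGFRA at 2278 ± 140 against 1715 ± 27.8 CPM (SD, n = 3). All 10 interstitial markers were detected, and in bFGF against OIM 2 were called higher (VIM at 0.66 and S100A6 at 0.86 on the log2 scale) and 3 lower (COL1A1 at -1.34, COL3A1 at -0.72 and DCN at -0.99). In the same comparison, 17.7% of all genes tested were called higher and 18.4% lower. The sums below are of the 10 interstitial markers. Their sum was 46939 to 51572 CPM in control, 44921 to 46850 in OIM and 29406 to 29778 in bFGF. Most of that difference lay in the collagens COL1A1 (25044 ± 1121 CPM in OIM, 9885 ± 222 with bFGF) and COL3A1 (10891 ± 302 and 6605 ± 108 CPM, SD, n = 3), which are also known as targets of TGF-beta, while LUM (0.01) and PDGFRA (-0.06) did not pass the test against OIM. In bulk RNA, fewer cells of a type and less RNA per cell cannot be told apart.

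Treatment with bFGF turned the ligand genes in opposite directions. TGFB1 rose 4.82-fold against OIM, while TGFB3 fell 3.20-fold and TGFB2 fell 1.78-fold. TGFB1 (chromosome 6, 49332169 to 49348642 of Sscrofa11.1, minus strand) encodes the ligand best known for fibrosis and immune control. Its level was 20.8, 19.2 and 18.4 CPM in control, 15.4, 16.4 and 11.7 CPM in OIM, and 68.4, 70.7 and 70.9 CPM in bFGF. All bFGF libraries lay far above all others, and all OIM libraries lay below all control libraries. The log2 fold change of TGFB1 was 2.27 for bFGF against OIM (standard error 0.088, adjusted p = 1.09e-14), 1.85 for bFGF against control (standard error 0.085, adjusted p = 1.40e-13) and -0.42 for OIM against control (standard error 0.089, adjusted p = 0.00302). The last value passed the adjusted p but not the fold limit. TGFB1 shares 127 exonic bases with LOC110261354 on the same strand, a gene whose level went from 0.814 ± 0.227 in OIM to 4.23 ± 0.844 CPM with bFGF (SD, n = 3), so some reads could belong to either.

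TGFB3 (chromosome 7, 99133873 to 99162239, minus strand) encodes a ligand with roles in palate and valve development. It had 222, 217 and 212 CPM in control, 320, 260 and 325 CPM in OIM, and 94.7, 93.7 and 94.5 CPM in bFGF. The groups did not overlap, and the bFGF libraries were the closest to each other while OIM replicate 2 lay below the other OIM libraries. The log2 fold change of TGFB3 was -1.68 for bFGF against OIM (standard error 0.060, adjusted p = 3.42e-15), -1.20 for bFGF against control (standard error 0.060, adjusted p = 4.17e-13) and 0.47 for OIM against control (standard error 0.058, adjusted p = 1.05e-05). The last of these was under the fold limit. Without OIM replicate 2, the change of TGFB3 between OIM and control was 0.57 and that of TGFB1 was -0.52, and both were called. TGFB3 shares 93 exonic bases with IFT43 on the opposite strand, whose mean level was 6.75 ± 0.344 under OIM and 6.17 ± 0.663 CPM with bFGF (SD, n = 3).

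TGFB2 (chromosome 10, 8306136 to 8435307, plus strand) encodes the ligand that needs betaglycan most for binding and that drives the cushion mesenchyme of the embryonic valve. Its level was 86.7, 76.8 and 82.0 CPM in control, 101, 90.8 and 99.3 CPM in OIM, and 54.5, 58.4 and 50.7 CPM in bFGF. All bFGF libraries lay below all others. The log2 fold change of TGFB2 was -0.83 for bFGF against OIM (standard error 0.057, adjusted p = 7.47e-11) and -0.59 for bFGF against control (standard error 0.057, adjusted p = 1.49e-08). Against control, the change with library totals alone was -0.36 and under the fold limit. Between OIM and control it was 0.24 (adjusted p = 0.00513), also under the limit.

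**Figure D1:**
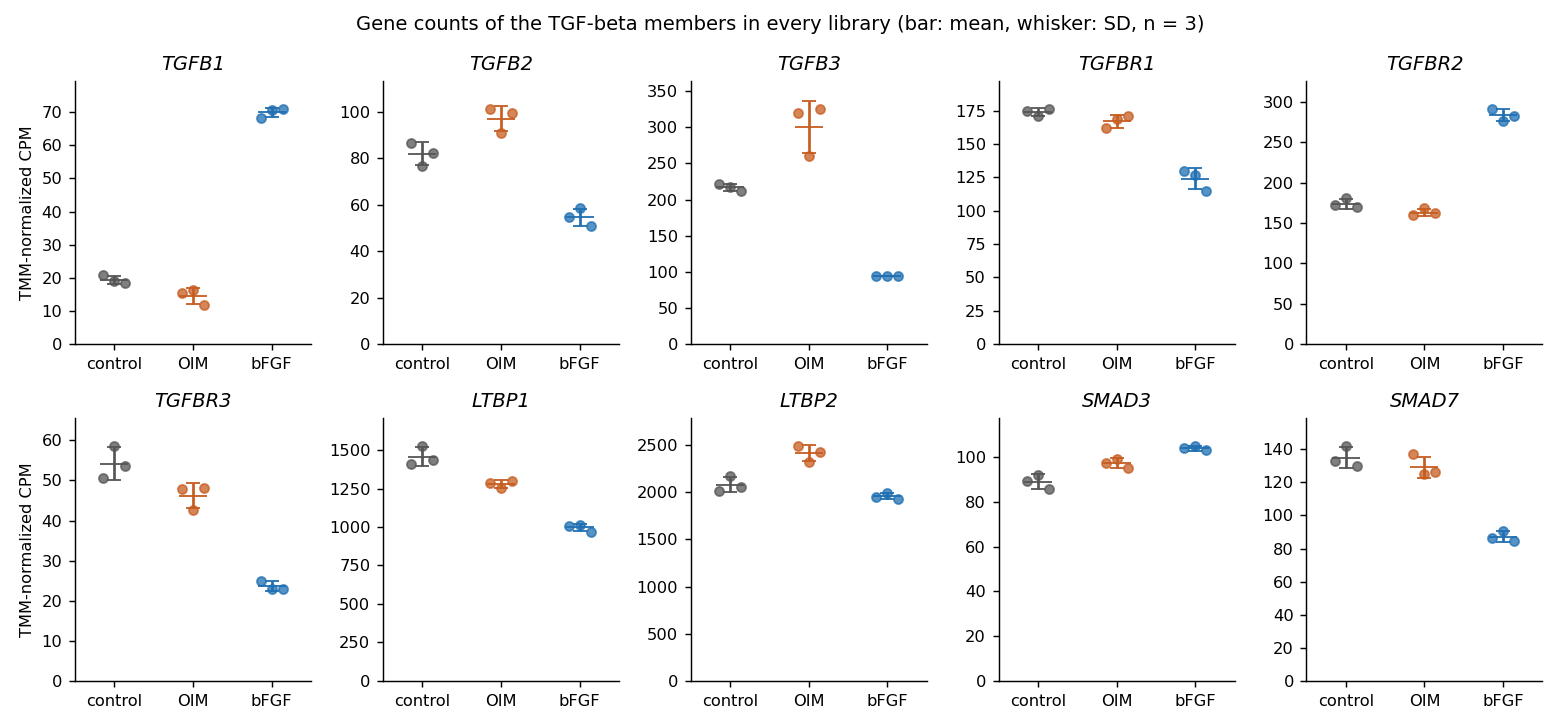
TMM-normalized CPM (vertical axes from 0) of each of the 10 genes in every library of the control, OIM and bFGF groups, with points for libraries, a bar for the mean and whiskers for the SD (n = 3). Of the genes called in bFGF against OIM, TGFB1 and TGFBR2 are highest in the bFGF libraries (68.4 to 70.9 and 277 to 291 CPM). TGFB3, TGFB2, TGFBR3 and SMAD7 are lowest there. SMAD3 is also highest and TGFBR1, LTBP1 and LTBP2 are also lowest in bFGF, by less than the fold limit against OIM.

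Because all 3 ligands were counted in the same libraries, their make-up does not depend on the scaling between libraries. Levels of different genes were compared per length, as CPM per kilobase of annotated exon. TGFB3 was the main ligand transcript in control, with 76.9 ± 0.723% of the summed ligand level, and in OIM, with 82.0 ± 1.96% (SD, n = 3). In bFGF it made up 43.5 ± 0.651%. The share of TGFB1 was 9.50 ± 0.324% in control, 5.54 ± 1.40% in OIM and 44.6 ± 0.655% in bFGF (SD, n = 3). The groups of TGFB1 shares did not overlap in any comparison, and each gave p = 0.1 in a two-sided exact permutation test, the smallest p that 3 against 3 libraries allow. The share of TGFB2 was 13.6 ± 0.612%, 12.4 ± 0.584% and 11.8 ± 0.761% in control, OIM and bFGF (SD, n = 3), where bFGF and OIM overlapped (exact permutation p = 0.4) and bFGF lay below control without overlap (exact permutation p = 0.1). These shares of TGFB2 depend on its length, since they were 20.8%, 19.1% and 18.5% with the longest transcript and 25.7%, 23.5% and 24.9% with no length, where bFGF lay above OIM.

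In the single libraries, the TGFB3 level per length was 7.75, 8.20 and 8.36 times that of TGFB1 in control, 15.1, 11.5 and 20.1 times in OIM, and on average 0.976 ± 0.0237 times in bFGF (SD, n = 3). The ligand pair was thus farther apart in OIM than in bFGF, where their levels per length overlapped. That overlap rests on the division by length, since without it TGFB3 stood 1.35 ± 0.0327 times as high as TGFB1 in bFGF (SD, n = 3). The summed level of the 3 ligands was 74.2 ± 2.08 CPM per kilobase in control, 96.4 ± 9.46 in OIM and 56.9 ± 0.550 in bFGF (SD, n = 3). The sum was thus lowest in bFGF, where TGFB1 was highest.

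**Figure D2:**
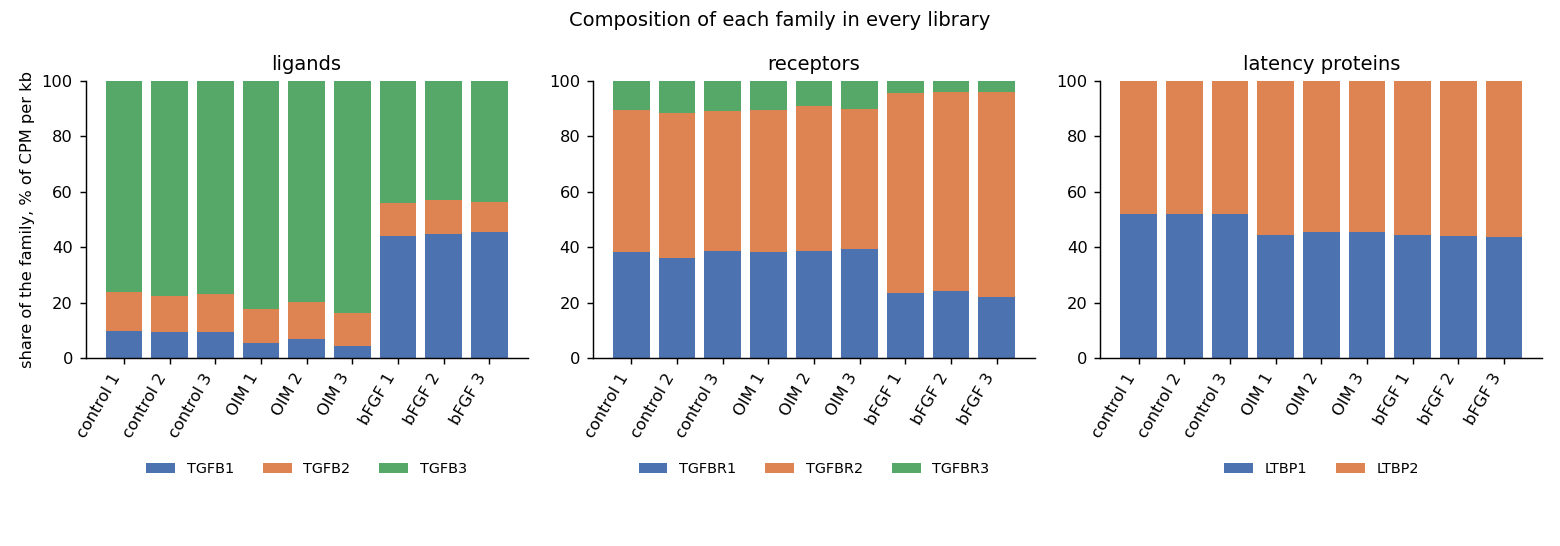
Share of each gene in its family (vertical axis, percent of CPM per kilobase of exon, stacked to 100) in each of the 9 libraries, for ligands, receptors and latent binding proteins. TGFB1 grows from 9.50% of the ligands in control to 44.6% in bFGF, TGFBR2 from 51.4% to 72.7% of the receptors, and LTBP1 shrinks from 51.9% to 45.0% between control and OIM.

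Among the receptors, TGFBR2 rose with bFGF, TGFBR3 fell, and TGFBR1 was lower by less than the fold limit. TGFBR2 (chromosome 13, 16784370 to 16875828, plus strand) encodes the type II receptor that first binds the ligand. It had 172, 181 and 170 CPM in control, 160, 169 and 162 CPM in OIM, and 291, 277 and 283 CPM in bFGF. All bFGF libraries lay above all others, and the OIM libraries lay just below the control libraries. The log2 fold change of TGFBR2 was 0.80 for bFGF against OIM (standard error 0.038, adjusted p = 2.80e-13) and 0.70 for bFGF against control (standard error 0.038, adjusted p = 1.53e-12). Between OIM and control it was -0.091 with an adjusted p of 0.127.

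TGFBR1 (chromosome 1, 240842735 to 240918267, plus strand) encodes the type I receptor kinase. It had 175, 171 and 176 CPM in control, 162, 169 and 171 CPM in OIM, and 130, 127 and 115 CPM in bFGF. The bFGF libraries did not overlap with the others, while OIM and control did. Its log2 fold changes of -0.43 against OIM (adjusted p = 3.17e-08) and -0.49 against control (adjusted p = 4.69e-09) were both under the fold limit, and the second was called in 3 of the 9 fits that left out 1 library (-0.53 to -0.51). TGFBR3 (chromosome 4, 125109939 to 125310788, plus strand) encodes betaglycan. It had 50.5, 58.6 and 53.6 CPM in control, 47.9, 42.6 and 48.1 CPM in OIM, and 25.0, 22.9 and 22.8 CPM in bFGF. The 3 groups did not overlap. TGFBR3 fell by 0.97 on the log2 scale against OIM (standard error 0.066, adjusted p = 7.29e-11) and by 1.20 against control (standard error 0.066, adjusted p = 2.09e-12), and was 0.23 lower in OIM than in control (adjusted p = 0.0174), under the limit.

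Per length, TGFBR2 held 51.4 ± 0.861% of the receptor level in control, 51.5 ± 0.935% in OIM and 72.7 ± 1.15% in bFGF (SD, n = 3). The bFGF shares lay above all others (p = 0.1 in the exact permutation test, the smallest possible), and OIM and control overlapped (exact p = 0.8). The level of TGFBR2 was 1.32 to 1.45 times that of TGFBR1 in control, 1.29 to 1.36 times in OIM and 2.98 to 3.37 times in bFGF. With no length, TGFBR2 was about even with TGFBR1 in control and stood at 0.977 ± 0.0280 times its level in OIM and 2.30 ± 0.151 times in bFGF (SD, n = 3). Against betaglycan, TGFBR2 stood 4.55 to 5.00 times higher in control, 4.92 to 5.83 times in OIM and 17.1 to 18.3 times in bFGF.

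The windows from 250 bases before to 50 bases after each annotated transcript start of the 10 genes (30 windows in all, Sscrofa11.1) were searched on both strands for the palindrome GTCTAGAC, which SMAD3 and SMAD4 bind, and for the AP-1 sites TGACTCA and TGAGTCA, which FOS and JUN proteins bind after growth factor signals. The SMAD palindrome was present at 1 site, in SMAD7. It fell in 2 of the 30 windows because SMAD7 has annotated starts at 98543922 and 98543924, whose windows overlap. Over all 46001 such windows in the genome, many of which overlap, 0.165% held it. With 1 site, this share cannot tell whether the members hold the palindrome more often than other genes. An AP-1 site was present in 1 of the 30 windows, that of TGFBR2, where 3.17% of all windows held one, so its presence among the members is at the background. They are shown as the matches found in the windows of the members, and no link to the direction of the calls was tested. Each line is 30 bases of the reference on the strand of the gene, 5′ to 3′, with the motif in capitals.
SMAD7, chr1:98544071-98544100, minus strand: agcgacagggtGTCTAGACggccacgtgac
TGFBR2, chr13:16784315-16784344, plus strand: gggagaagtcgTGAGTCActcgcgcgcccg
The SMAD7 palindrome starts 165 bases before the outermost annotated start, and the TGFBR2 site 44 bases before its start. A match describes letters only, and binding was not measured.

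SMAD7 (chromosome 1, 98512800 to 98543924, minus strand), the inhibitor and a direct target of the pathway, fell with bFGF, whereas SMAD3 was nearly level. SMAD7 had 133, 142 and 130 CPM in control, 137, 125 and 126 CPM in OIM, and 86.2, 90.6 and 84.3 CPM in bFGF. All bFGF libraries lay below all others, and OIM and control overlapped. The log2 fold change was -0.57 for bFGF against OIM (standard error 0.046, adjusted p = 1.00e-09) and -0.63 for bFGF against control (standard error 0.046, adjusted p = 1.94e-10). With library totals alone these were -0.35 and -0.41, so SMAD7 was then not called. Between OIM and control it was -0.058 (adjusted p = 0.460).

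SMAD3 (chromosome 1, 164998457 to 165124455, plus strand) carries the signal of all 3 ligands. It had 89.5, 92.2 and 85.6 CPM in control, 97.5, 99.2 and 95.1 CPM in OIM, and 104, 105 and 103 CPM in bFGF. The groups did not overlap, in the order control, OIM, bFGF, but the steps were small. The log2 fold change of SMAD3 was 0.13 for OIM against control (adjusted p = 0.0416), 0.094 for bFGF against OIM (adjusted p = 0.0444) and 0.22 for bFGF against control (adjusted p = 6.28e-05), all under the fold limit. Its 3′ end shares 1450 exonic bases with AAGAB on the opposite strand, whose level was 27.6 ± 2.02 under OIM and 34.8 ± 2.37 CPM with bFGF (SD, n = 3). Per length, SMAD3 stood at 0.573 to 0.594 times the level of SMAD7 in control, 0.629 to 0.698 times in OIM and 1.02 to 1.07 times in bFGF. With the longest transcript as length SMAD3 stayed below SMAD7 in bFGF as well (0.908 ± 0.0246 times, SD, n = 3).

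The latent binding proteins were the most abundant members. In control, LTBP1 had 244 ± 10.4 and LTBP2 226 ± 8.88 CPM per kilobase, against 57.0 ± 1.27 for TGFB3, the next in order, and 7.05 ± 0.437 for TGFB1, the lowest (SD, n = 3). In OIM the order of the pair was turned, with 262 ± 9.27 for LTBP2 and 215 ± 3.92 for LTBP1 (SD, n = 3). The turn rests on the division by exon length, since without it LTBP1 held 41.2% of the pair in control and 34.7% in OIM, so that LTBP2 was ahead in both. Below them, the order of the other 8 genes in control was also their order in OIM, from TGFB3 over TGFBR2, TGFBR1, SMAD7, SMAD3, TGFB2 and TGFBR3 to TGFB1. With no length this did not hold, since TGFBR1 (167 ± 5.03 CPM) then came before TGFBR2 (163 ± 4.67 CPM) in OIM only (SD, n = 3). In bFGF, TGFBR2 followed LTBP1 at 65.8 ± 1.61, TGFB1 came next at 25.4 ± 0.515, and TGFBR3 was last at 3.71 ± 0.199 CPM per kilobase (SD, n = 3). The place of TGFB1 in bFGF rests on its short length, since with no length it ranked 8 of 10 (70.0 ± 1.42 CPM, SD, n = 3), behind TGFBR1, SMAD3, TGFB3 and SMAD7. With the longest transcript as length, TGFB2 (17.5 ± 1.06 in control) came before SMAD3 (15.5 ± 0.580) and SMAD7 before TGFBR1 in control and OIM, and TGFB3 before TGFB1 and SMAD7 before SMAD3 in bFGF (CPM per kilobase, SD, n = 3). Neighbours in the orders by exon length did not overlap between libraries, except TGFB1 with TGFB3 and SMAD3 with SMAD7 in bFGF.

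LTBP1 (chromosome 3, 106300748 to 106724538, minus strand) binds the latent ligand covalently and anchors it in the matrix. Its exons share 459 bases with LOC110260036 and 105 with LOC110260037, both on the opposite strand. It had 1409, 1527 and 1434 CPM in control, 1286, 1252 and 1298 CPM in OIM, and 1008, 1013 and 969 CPM in bFGF. The 3 groups did not overlap. LTBP1 fell by 0.55 on the log2 scale in bFGF against control (standard error 0.035, adjusted p = 2.73e-11), or by 0.32 when scaled by library totals alone, which is below the limit. Against OIM it was 0.36 lower (adjusted p = 1.99e-08), and in OIM 0.19 lower than in control (adjusted p = 0.00101), both under the limit.

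LTBP2 (chromosome 7, 97744974 to 97852848, minus strand) is a matrix protein of elastic fibres that does not bind the latent ligand as LTBP1 does. It lies 1281024 bases from TGFB3 on the same strand. It had 2009, 2169 and 2058 CPM in control, 2489, 2320 and 2421 CPM in OIM, and 1948, 1993 and 1930 CPM in bFGF. The OIM libraries were the highest. LTBP2 was 0.21 higher on the log2 scale in OIM than in control (adjusted p = 0.000329) and 0.30 lower in bFGF than in OIM (adjusted p = 2.79e-07), both under the fold limit. Its difference of -0.087 between bFGF and control turned to 0.14 with library totals alone. Its exons share 1518 bases with ISCA2 on the opposite strand, which had 5.25 to 5.51 CPM on average in the 3 groups. The share of LTBP1 in the summed level of the pair was 51.9 ± 0.128% in control, 45.0 ± 0.587% in OIM and 44.0 ± 0.380% in bFGF (SD, n = 3). Control lay above OIM without overlap (exact permutation p = 0.1, the smallest possible), and OIM and bFGF overlapped (exact p = 0.2).

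**Figure D3:**
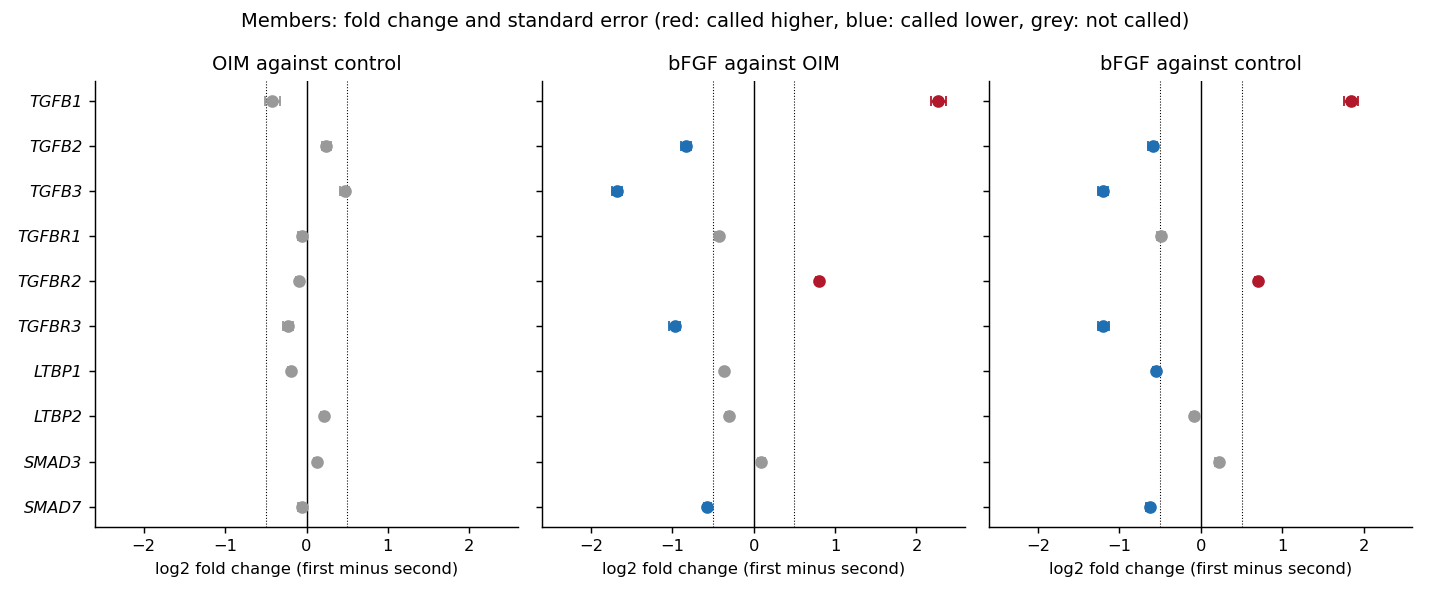
Log2 fold change of each of the 10 genes (horizontal axes, first group minus second) with its standard error in the 3 comparisons, where dotted lines mark the fold limit of 0.5. Points for OIM against control all lie within the limit, while in bFGF against OIM TGFB1 (2.27) and TGFBR2 (0.80) lie to the right and TGFB3 (-1.68), TGFBR3 (-0.97), TGFB2 (-0.83) and SMAD7 (-0.57) to the left.

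Counted over the 10 genes, 2 were called higher (TGFB1 and TGFBR2) and 4 lower (TGFB2, TGFB3, TGFBR3 and SMAD7) in bFGF than in OIM. Of all genes tested, 17.7% were called higher and 18.4% lower, which makes 36.2%, and 67.4% passed the adjusted p alone. The libraries of the groups did not overlap in any of the 10, where this held for 72.1% of all genes. The median log2 fold change of the members was -0.40, against -0.0029 for all genes. In bFGF against control the same 2 were called higher and LTBP1 joined the 4 called lower, which makes 5 (or 2 higher and 2 lower with library totals alone), beside 18.9% and 20.0% of all genes (39.0% in either direction, 70.2% at the adjusted p alone). Their libraries did not overlap in any of the 10, as in 73.7% of all genes. These comparisons share the bFGF libraries, so they are not separate evidence. In OIM against control 0 of the 10 were called in edgeR and 0 in DESeq2, beside 1.49% of all genes called higher and 0.864% lower (2.35% in either direction). The libraries did not overlap in 8 of the 10, where this held for 28.8% of all genes. The shares of all genes are not matched for level. Each member had at least 668 counts in every library, while tested genes reach down to levels such as NRROS (0.0389 CPM in control). The members were also chosen with earlier results of these data known. At the adjusted p alone 7 of the 10 passed, 4 higher (TGFB2, TGFB3, LTBP2 and SMAD3) and 3 lower (TGFB1, TGFBR3 and LTBP1), where 13.6% of all genes did, and at an unadjusted p under 0.05 TGFBR2 passed too.

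The pathway around the members was described through 83 further genes in 5 lists. In bFGF against OIM 8 were called higher and 40 lower, with a median log2 fold change of -0.30, beside the 17.7% and 18.4% of all genes. With library totals alone, 14 of these pathway genes were called higher and 29 lower. The shares of all genes printed here and for the lists below are with TMM. Those with library totals alone are not given, and the median log2 fold change of all genes was then 0.22. In OIM against control 6 were called higher and 2 lower, with a median of 0.03, beside 1.49% and 0.864% of all genes. The higher calls were 5 without OIM replicate 3 and 4 without control replicate 2.

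Of 20 tested genes that hold, release or bind latent TGF-beta, bFGF gave 3 higher and 10 lower calls against OIM, or 5 and 8 with library totals alone. With TMM, 17.7% of all genes were called higher and 18.4% lower. THBS1, thrombospondin, a matrix protein that can activate latent TGF-beta, fell from 31240 ± 1923 to 7593 ± 306 CPM (SD, n = 3), with a log2 difference of -2.04. ASPN, asporin, a small proteoglycan that binds the ligand, fell from 233 ± 14.5 to 31.9 ± 3.91 CPM (SD, n = 3). ITGB3, the integrin chain that pairs with ITGAV, rose from 61.1 ± 7.32 to 236 ± 2.69 CPM (SD, n = 3), whereas ITGAV was called lower at -0.84. FURIN, the protease that cuts the ligand precursors, was called higher at 0.84 and FBN1, the fibrillin to which latent complexes are tethered, was called lower at -1.47. Between OIM and control none of the 20 passed both limits in edgeR, and 4 higher and 6 lower passed the adjusted p alone. Over all genes, 13.6% passed it in either direction.

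Of 12 co-receptors and transducers, 2 were called with bFGF against OIM, both lower, where 18.4% of all genes were called lower. With library totals alone 1 was called higher (TAB1) and 1 lower (DAB2). DAB2, an adaptor that links receptors to SMADs, fell from 250 ± 8.86 to 72.6 ± 0.806 CPM (SD, n = 3) and ACVRL1, an alternative type I receptor of endothelial cells, from 35.7 ± 1.37 to 22.1 ± 0.522 CPM (SD, n = 3). With library totals alone the change of ACVRL1 was -0.47. SMAD2 (-0.22) and SMAD4 (-0.13), the other core transducers, did not reach the fold limit. CAV1, caveolin, on which receptors are internalized, fell from 213 ± 2.19 in control to 141 ± 0.960 CPM in OIM (SD, n = 3) and was the member of this list called in that comparison.

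Of 17 genes listed as negative regulators, 5 were called with bFGF against OIM, each of them lower. Of all genes, 18.4% were called lower and 36.2% in either direction. The list was drawn broadly, since LTBP4 (-0.30) is also among the latency genes and USP15 (-0.013) is not an inhibitor in the strict sense. Neither was among the 5. With library totals alone 2 were called lower (LDLRAD4 and PMEPA1) and 3 higher (TGIF2, NEDD4L and LEMD3), while SKIL, BAMBI and FKBP1A were no longer called. LDLRAD4, which sequesters SMADs from the receptor, fell from 12.2 ± 1.02 to 1.08 ± 0.353 CPM (SD, n = 3). PMEPA1, of the same family and a target of the pathway, fell from 414 ± 31.7 to 218 ± 4.53 CPM, and SKIL, a repressor of SMAD complexes, from 253 ± 7.21 to 157 ± 5.01 CPM (SD, n = 3). SMURF1 and SMURF2, the ubiquitin ligases that act with SMAD7, each differed by 0.12 on the log2 scale, below the limit.

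Of 28 tested genes known as targets of TGF-beta, bFGF gave 4 higher and 20 lower calls against OIM (4 and 15 with library totals alone), with a median log2 fold change of -0.82. Over all genes with TMM, 17.7% were called higher and 18.4% lower. ACTA2, smooth muscle actin, fell from 8448 ± 1384 to 738 ± 52.8 CPM and CNN1, calponin, from 303 ± 51.5 to 36.9 ± 3.14 CPM (SD, n = 3). CTGF and COL1A1 were called lower at -1.79 and -1.34. IL11, a cytokine that fibroblasts release, rose from 31.2 ± 9.13 to 373 ± 13.0 CPM (SD, n = 3), and POSTN, CDKN2B and CDH2 were called higher at 1.46, 1.27 and 0.66. The early targets JUNB (-0.037) and KLF10 (-0.071) did not pass the test. Between OIM and control 5 were called, all higher, where 1.49% of all genes were called higher. Among the 5, ELN, elastin, went from 113 ± 6.45 to 227 ± 36.4 CPM and IL11 from 13.2 ± 0.997 to 31.2 ± 9.13 CPM (SD, n = 3). OIM replicate 2 stood apart from the other OIM libraries, with ELN lower (185 CPM) and IL11 higher (41.5 CPM).

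Of 7 BMP-side SMADs and ID genes, which answer to the related bone morphogenetic proteins, bFGF gave 1 higher call (ID1) and 3 lower calls against OIM. Over all genes, 17.7% were called higher and 18.4% lower. ID3 fell from 290 ± 15.4 to 103 ± 4.82 CPM, ID2 from 39.6 ± 0.452 to 20.2 ± 0.367 CPM and SMAD9 from 16.3 ± 0.409 to 9.59 ± 0.733 CPM (SD, n = 3). Between OIM and control, ID2 fell from 61.8 ± 3.27 to 39.6 ± 0.452 CPM and ID4 rose from 16.2 ± 1.08 to 23.2 ± 1.24 CPM (SD, n = 3). The call of ID4 was lost without OIM replicate 3 or without control replicate 2 (0.48 in both).

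**Figure D4:**
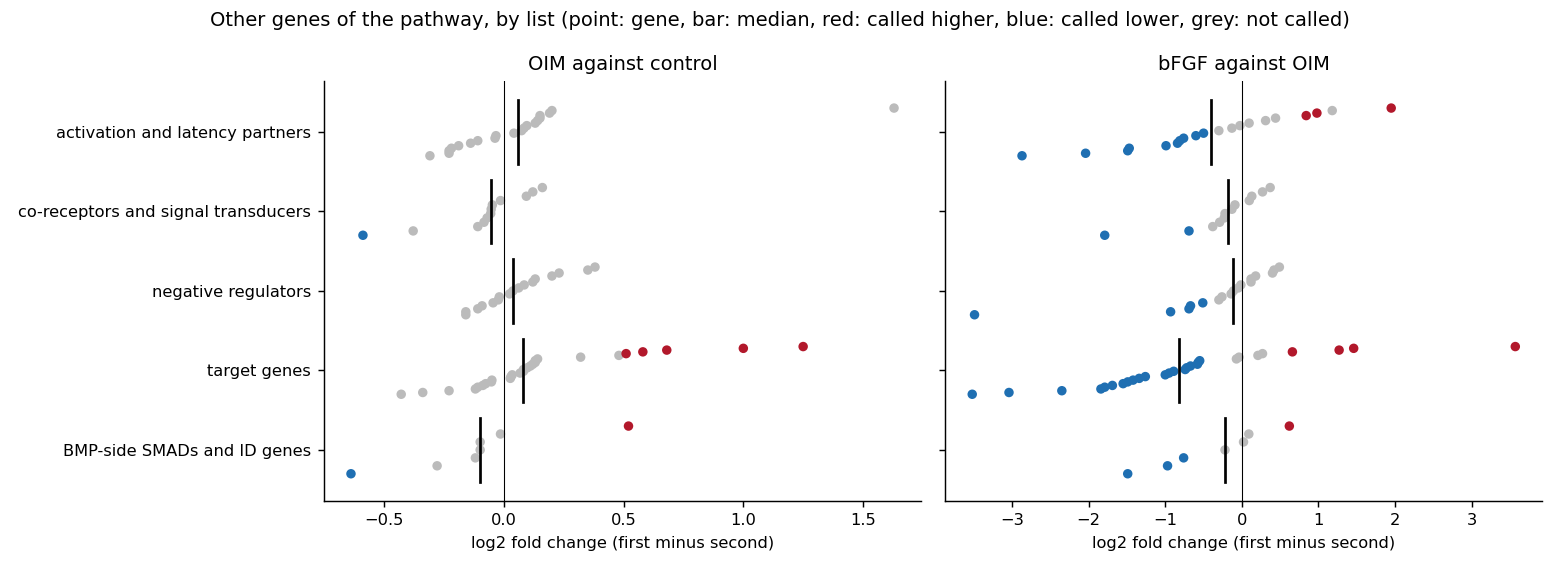
Log2 fold change (horizontal axes) of the tested genes in 5 lists of the pathway for OIM against control and bFGF against OIM, with a point per gene, a bar at the median, red for called higher and blue for called lower. The target genes sit mostly to the left in bFGF against OIM (20 of 28 lower, median -0.82) and near 0 in OIM against control (median 0.08).

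Markers of other cell types were measured in the same libraries. Per the labels, the endothelium had been scraped off the leaflets before the cells were isolated. The 8 smooth muscle markers, of which ACTA2, TAGLN and CNN1 are also in the target list, summed to 9906 to 10419 CPM in control, 10168 to 13456 in OIM and 1637 to 1820 in bFGF. All 8 were called lower with bFGF against OIM, where 18.4% of all genes were. In OIM against control 2 of them were called higher, where 1.49% of all genes were. The 10 endothelial markers summed to 74.1 to 76.1 CPM in control, 88.4 to 90.2 in OIM and 171 to 180 in bFGF. With bFGF against OIM, 17.7% of all genes and 7 of the 10 in this sum were called higher. ERG made up most of this sum (137 ± 5.05 CPM in bFGF), while VWF, a defining marker, had 0.228 ± 0.0974 CPM and PECAM1 20.7 ± 1.07 CPM in bFGF (SD, n = 3). The 10 leukocyte markers summed to at most 18.4 CPM in any library and to 9.13 to 10.1 CPM in bFGF, with CD3E at 0 counts throughout. CD14 made up most of this sum, with 13.5 ± 0.537 CPM in OIM and 7.68 ± 0.498 in bFGF (SD, n = 3). The part of other cells in the changes of the TGF-beta genes was not tested.

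For each member, the 2 tested genes with the most similar profile over the 9 libraries were found by the distance between centred log2 CPM values. Pearson's r is given as a description, since the libraries fall into 3 treatment groups that set most of it. Nearest to TGFB1 was EDNRB, an endothelin receptor (distance 0.375, r = 0.994), which had 7.86, 6.91 and 27.9 CPM in control, OIM and bFGF. TGFB3 was nearest to C13H3orf70 (0.185, r = 0.997) and COL4A1, a basement membrane collagen (0.216, r = 0.996), and TGFB2 to VEPH1 (0.154, r = 0.992) and ITGB1 (0.158, r = 0.989). TGFBR2 was nearest to the tubulin gene TUBB (0.0923, r = 0.997), TGFBR1 to IFNGR2 (0.0755, r = 0.995) and TGFBR3 to the collagen receptor DDR1 (0.115, r = 0.998). The nearest gene to LTBP2 was its own relative LTBP4 (0.0709, r = 0.985), with 118, 135 and 110 CPM, and the nearest to LTBP1 was LRPAP1 (0.0713, r = 0.995). SMAD3, whose range was small, was nearest to the ribosomal protein gene RPL8 (0.0709, r = 0.971), and SMAD7 to VAC14 (0.0845, r = 0.996).

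The table also counts circular RNAs, which form when the end of an exon is joined back to the start of an earlier exon. Of 6179 in the table, 29 lay within 6 of the members on their strand (16 in LTBP1, 4 in LTBP2, 3 each in TGFB2 and TGFBR2, 2 in TGFBR1 and 1 in TGFBR3), and both ends of 27 were at annotated exon boundaries. The smallest count listed above 0 for these was 2. Only 1 of the 29 was counted in all 9 libraries, a circle of LTBP1 from chr3:106380539-106443851 that joins exon 26 back to exon 13 of the 36 exons of the annotated transcript and would hold 14 exons of 1731 bases. Its back-splice junction in the reference, with the last 15 bases of exon 26 in lower case and the first 15 bases of exon 13 in capitals, is shown because it is the sequence that tells the circle from the linear transcript.
LTBP1 circle junction, minus strand: gacgcacgtgtgaagCGGATACCCCTGTGA
This circle had 12, 20 and 18 counts in control, 9, 19 and 14 in OIM, and 8, 11 and 9 in bFGF. Every other circle of the members had at most 8 counts in any library. All circles of LTBP1 together had 0.402 ± 0.140 CPM in control, 0.452 ± 0.105 in OIM and 0.343 ± 0.0387 in bFGF (SD, n = 3), and the groups overlapped in each comparison (exact permutation p = 0.6 for OIM against control, 0.3 for bFGF against OIM and 0.5 for bFGF against control). An exact test of 3 against 3 libraries cannot give a p under 0.1.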

How the data were processed

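RNA of 9 PVIC libraries (3 per group) was sequenced, and each library was assigned to its group by its title. Per the study's methods, the authors trimmed reads with Cutadapt and aligned them to susScr11 with STAR after poly-A selection. The submitters' processing notes instead name Trimmomatic, HISAT2, StringTie and Sscrofa11.1, and the labels a stranded kit with ribosomal RNA removal. The counting program and its strand setting are not given in the sources used here. The deposited table holds counts that were not normalized, whole numbers for genes and circRNAs and estimated counts for 9888 non-coding transcripts, which were not used here. Another 19 columns without a name or value were not used.

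Gene counts were filtered with filterByExpr, normalized by TMM and fitted in edgeR 4.0.16 (R 4.3.3) with 3 groups in 1 quasi-likelihood model; p-values were adjusted over all 13662 genes tested. Standard errors are the log2 fold change divided by the square root of F. Shares and sums of circRNA counts were compared by two-sided exact permutation tests (scipy 1.17.1), and ratios between members were not tested. Exon lengths, positions and sequences came from RefSeq's annotation of Sscrofa11.1, the build of the files. The test was checked on simulated counts. DESeq2 1.42.0, other scalings, filters, fold limits and left-out libraries were alternatives. The members and lists were chosen with earlier results of these data known. Named pathway genes are, per list, the 3 (bFGF against OIM) and 2 (OIM against control) called genes with the largest change, no overlap of libraries and 10 or more counts on average in the group where the gene is higher. Other genes named beside them were chosen after their values were seen. No pair of replicates was close enough to be a copy (mean chi-square per gene 4.62 to 18.8). The highest values, 18.7 and 18.8, were those of OIM replicate 2 against the other OIM libraries.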

Additional observations from a re-analysis of the deposited data

How the results depend on the processing

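Of 480 recomputed fold changes of the members, 470 kept direction and call, and TGFB1, TGFB3, TGFBR2 and TGFBR3 kept their calls in both bFGF comparisons in each alternative fit at the log2 fold limit of 0.5. With library totals alone, 2 members were called lower in bFGF against control, TGFB2 (-0.36), LTBP1 (-0.32) and SMAD7 (-0.41) no longer passed the fold limit, and LTBP2 reversed to 0.14. Pathway genes were then 14 higher and 29 lower in bFGF against OIM, and 16 higher and 30 lower against control. Without a fold limit, 4 members were higher and 3 lower in OIM than in control, 7 were lower in bFGF than in OIM, and the pathway genes called were 17 higher and 14 lower for OIM, 23 higher against OIM and 22 higher against control. With a log2 fold limit of 1, members called were 1 higher and 1 lower against OIM and 1 and 2 against control, and pathway genes were 1 higher and 0 lower for OIM, 4 and 19 against OIM, and 22 lower against control. The replicate block changed no call of a member, with 2 higher and 4 lower in bFGF against OIM. Same-numbered libraries did not deviate together (r from -0.032 to 0.0035), and not every library correlated best with its own number, so the numbers were not taken as pairs.

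Leaving out 1 library gave 0 to 1 members higher and 0 to 1 lower in OIM, and the uncalled differences of ASPN (-0.084 to 0.0074), THBS1 (-0.074 to 0.014) and SKIL (-0.016 to 0.087) between OIM and control crossed 0. CNN1 was called in OIM (0.61) without OIM replicate 2. For circles of LTBP1 the difference in CPM ranged from -0.0222 to 0.117 for OIM against control and from -0.131 to 0.00842 for bFGF against control. The negative values for OIM were -0.0222 without control replicate 1 and -0.00386 without OIM replicate 3, and the positive one for bFGF was 0.00842 without control replicate 3. The level order and the ratios between members were recomputed under other lengths after seeing the data. With the longest transcript as length, the shares in control, OIM and bFGF were 20.8%, 19.1% and 18.5% for TGFB2 and 70.9%, 76.0% and 41.2% for TGFB3, and for TGFB1 8.35% in control and 40.3% in bFGF. With no length they were 6.10%, 3.56% and 32.0% for TGFB1, 25.7%, 23.5% and 24.9% for TGFB2, 68.2% and 72.9% for TGFB3 in control and OIM, 43.3%, 43.3% and 65.8% for TGFBR2, and 41.2%, 34.7% and 33.7% for LTBP1. Every member had at least 668 counts in each library, whereas the circles had at most 20.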
